A study of Rattus norvegicus with 141 samples.

Results

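Stomach and duodenum were compared in rats that had received only the vehicle, to describe how far the transcriptomes of these neighbouring organs differ when no dose is involved. The comparison joined the stomach and the duodenum gene tables on the gene identifier and used 30 of the 141 libraries of the series: 16 stomach libraries, 8 labelled male and 8 female, and 14 duodenum libraries, 7 labelled male and 7 female. All were from adult wild-type Sprague-Dawley rats on standard rodent chow, labelled male or female vehicle control, and the labels give neither the substance nor the route of the vehicle. Polyadenylated RNA was sequenced from several frozen pieces of each organ that had been pulverised together, so a library mixes mucosa, muscle and whatever regions the pieces held. Duodenum male control replicate 1 was left out because its markers look ileal, as described below.

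The stomach of the rat has a glandular part, where surface cells make mucus, parietal cells secrete acid and chief cells secrete pepsinogen, and a forestomach lined by keratinised squamous epithelium with no glands. The duodenum follows the pylorus. It receives acid, bile and pancreatic juice, and its villi carry enterocytes that digest and absorb sugars, peptides, lipids and iron, while its crypts hold stem, Paneth and goblet cells. Regional transcription factors, among them SOX2 in the foregut and CDX2 in the intestine, keep the epithelia of the organs distinct.

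The sequences shown here are the promoters of genes on which the contrast turns: Pgc and Gkn2, abundant in stomach and near 0 in duodenum, and Si, Alpi and Gip, the reverse. Each is the 250 bases before the gene's start in RefSeq, on the GRCr8 build and in the direction of transcription, whereas the counts were made on mRatBN7.2. Capitals mark matches on either strand to 5 motifs. TATAAA is the letters of the TATA box, CAATAAA and the shorter variant CATAAA are forms bound by CDX2, CAAAGTCCA is a form bound by HNF4, and AGATAA is a form bound by GATA factors.
Pgc, chr9:20763221-20763470, minus strand: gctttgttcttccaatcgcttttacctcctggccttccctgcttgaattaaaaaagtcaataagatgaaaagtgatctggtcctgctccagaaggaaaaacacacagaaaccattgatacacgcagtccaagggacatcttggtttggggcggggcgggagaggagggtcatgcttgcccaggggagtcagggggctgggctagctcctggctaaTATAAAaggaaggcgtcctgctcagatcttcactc
Gkn2, chr4:121375344-121375593, plus strand: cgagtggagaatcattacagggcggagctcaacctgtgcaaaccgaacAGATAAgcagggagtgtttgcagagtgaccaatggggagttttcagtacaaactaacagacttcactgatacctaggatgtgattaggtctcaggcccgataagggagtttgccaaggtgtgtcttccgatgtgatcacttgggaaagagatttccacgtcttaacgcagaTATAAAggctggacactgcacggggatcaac
Si, chr2:159884903-159885152, minus strand: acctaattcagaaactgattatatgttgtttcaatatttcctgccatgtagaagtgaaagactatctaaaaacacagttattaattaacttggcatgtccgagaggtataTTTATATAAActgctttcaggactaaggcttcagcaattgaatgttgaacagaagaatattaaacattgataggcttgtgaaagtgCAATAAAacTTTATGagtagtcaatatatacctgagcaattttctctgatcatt
Alpi, chr9:95224781-95225030, minus strand: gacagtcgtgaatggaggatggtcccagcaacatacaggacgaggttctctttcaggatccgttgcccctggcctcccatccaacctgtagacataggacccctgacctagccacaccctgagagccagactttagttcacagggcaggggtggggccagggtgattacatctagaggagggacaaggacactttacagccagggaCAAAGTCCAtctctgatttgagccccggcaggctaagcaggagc
Gip, chr10:81464820-81465069, plus strand: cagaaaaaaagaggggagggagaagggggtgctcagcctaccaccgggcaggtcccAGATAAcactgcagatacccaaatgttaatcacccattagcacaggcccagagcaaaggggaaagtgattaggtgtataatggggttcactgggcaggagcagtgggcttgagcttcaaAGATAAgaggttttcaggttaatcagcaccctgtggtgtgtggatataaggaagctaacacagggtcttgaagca
The letters TATAAA began at position -35 in Pgc and at -31 in Gkn2, counted from the gene's start. In Si they lay at -136 and, overlapping, on the other strand at -140. The Si promoter also held CAATAAA at -54 and CATAAA on the other strand at -45, where it reads TTTATG. Alpi held CAAAGTCCA at -44. AGATAA stood at -202 in Gkn2 and at -194 and -75 in Gip. Of 15435 genes tested, 10668 (69.1%) had a promoter in RefSeq under their own symbol. TATAAA occurred in 7.08% of these promoters, in 10.7% of the 908 belonging to genes at least 4-fold higher in stomach and in 14.8% of the 748 belonging to genes at least 4-fold higher in duodenum. In the same order, CAATAAA occurred in 2.57%, 2.53% and 4.81%, CATAAA in 6.23%, 7.82% and 11.1%, CAAAGTCCA in 0.328%, 0.33% and 1.74%, and AGATAA in 6.21%, 8.7% and 10.2%. These are counts of letters and were not tested.

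The libraries held 5926749 to 16172910 estimated counts in stomach and 8104116 to 25503801 in duodenum. Pairwise correlations of log2 CPM (counts scaled to the library total) over the tested genes ran from 0.935 to 0.981 among stomach libraries, from 0.922 to 0.981 among duodenum libraries, and from 0.612 to 0.732 between the organs. The first principal component, which held 80.5% of the variance, separated every stomach library from every duodenum library, and the second held 3.03%. The libraries carried 3 batch labels shared by both organs, the third with 1 stomach and 2 duodenum libraries. Each organ had its own count table, so the organ and anything done separately for its table cannot be told apart. The labels do not say which libraries come from separate animals, and p-values measure only the spread between these libraries.

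In the library left out, 9 of 12 ileal markers lay above all 14 other duodenum libraries and 11 of 15 duodenal and jejunal markers lay below all of them. Fabp6, the ileal bile acid binding protein, stood at 3192 CPM against at most 4.0 CPM in the others, and Slc10a2, the ileal bile acid importer, at 419.8 CPM against at most 12.3 CPM. Gata4, a transcription factor of the proximal intestine, stood at 0.266 CPM against at least 128.9 CPM, and Pdx1, a factor of the duodenum, at 0 against at least 30.5 CPM. The other 14 libraries all carried Pdx1, Gata4 and Gip, and all 16 stomach libraries carried Pgc, Atp4a and Muc5ac. The left-out library was excluded on markers of this kind, so the duodenal ones are no separate check of the 14. Gata4 did not pass between the organs, as given below, and does not tell them apart.

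The 2 organs differed in most of what they expressed. Of 15435 genes tested, 12425 (80.5%) differed at an adjusted p under 0.05 in edgeR's quasi-likelihood test with Benjamini-Hochberg adjustment, 6198 (40.2%) higher in stomach and 6227 (40.3%) higher in duodenum. Many of these differences were small. The median size over called genes was 0.90 on the log2 scale and 4098 of them (33%) were under 1.5-fold. A log2 change of at least 2, which is 4-fold, was reached by 1387 genes higher in stomach (8.99%) and 1188 higher in duodenum (7.7%). Within batch 1 alone 11177 genes were called and within batch 2 alone 10943, while the third batch was too small for a fit of its own. The ranges of the organs did not overlap for 4790 genes (31% of those tested), while 436 of the 2575 genes past 4-fold did overlap in at least 1 library. Log2 changes below are stomach minus duodenum, mean of the sexes with standard error, so a positive value is higher in stomach, and the median over all genes tested was -0.01. Levels are given in CPM and were not divided by gene length, so they compare libraries and not genes. As these are whole pieces of organ, more cells of a type and more RNA per cell cannot be told apart.

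**Figure D1:**
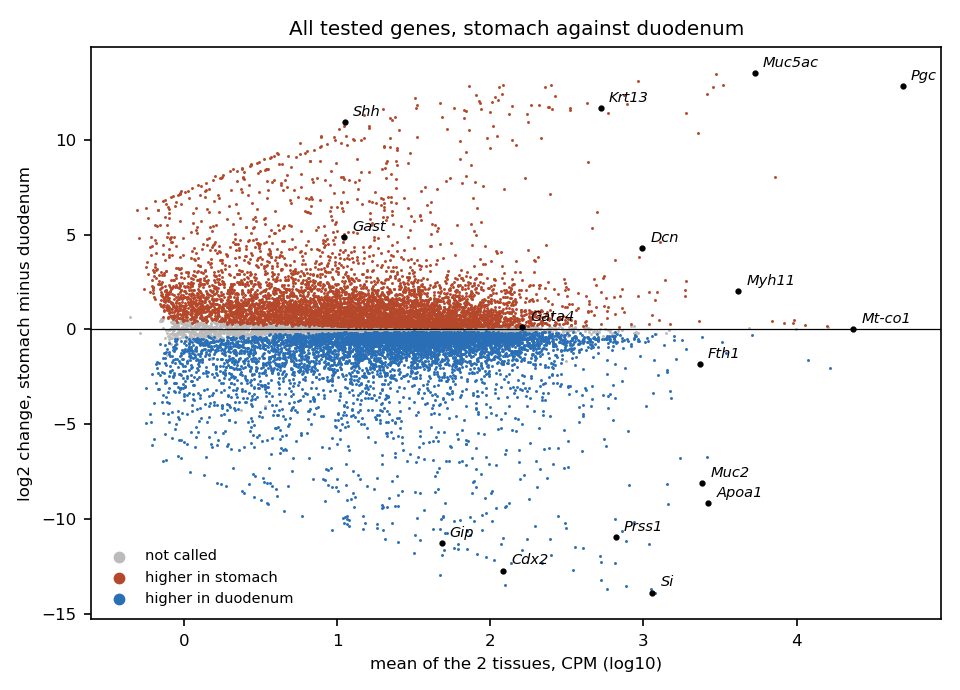
Each point is 1 of the 15435 genes tested. The horizontal axis is the mean CPM of the 2 organs on a log10 scale, the vertical axis the fitted log2 change, stomach minus duodenum, with genes called at an adjusted p under 0.05 coloured by direction and 16 genes named. The calls fill both sides, 6198 up and 6227 down, with Pgc far to the right at the top and Si at the bottom.

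The stomach transcriptome was the more concentrated. The 10 most abundant genes of a library took 22.7% ± 1.75 of its counts in stomach (SD, n = 16) and 14.4% ± 2.86 in duodenum (SD, n = 14), ranges that did not overlap (19.98 to 26.05% against 9.65 to 19.86%). The 100 most abundant took 40.1% ± 1.52 against 31.7% ± 2.51, and the effective number of genes, the exponential of the Shannon entropy of the shares, was 1620 ± 162 against 2598 ± 316. All 3 differences reached a permutation p of 1e-05, the smallest that 100000 two-sided permutations within batch and sex can give, and 1.33e-05 after adjustment over 4 measures. The number of genes detected after thinning each library to 5926729 counts was 17872 ± 177 in stomach and 17740 ± 433 in duodenum, a difference that did not pass (adjusted p = 0.22). Pgc alone, the precursor of the aspartic protease gastricsin, took 6.29 to 12.9% of the counts of a stomach library. Genes with Mt- symbols, of the mitochondrial genome, held 7 of the 10 leading places in stomach and 8 in duodenum, ordered by median share. The rest of the duodenal places went to AY172581.24 and AY172581.9, entries without a gene name. Their median shares were 2.41% and 1.73% in duodenum against 0.637% and 0.54% in stomach. What these entries encode was not examined, so the count is by symbol only.

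Chief cell genes were higher in stomach for 10 of 10 tested members, 9 of them by at least 4-fold, with a median log2 change of 6.91. Pgc ranged from 65767 to 133586 CPM (median 96170.0) in stomach and from 1.44 to 69.5 CPM (median 7.06) in duodenum. Every stomach library lay above every duodenum library by a wide margin, and the change was 12.81 ± 0.61 (adjusted p = 4.73e-17). Cym, the milk-clotting protease chymosin, ranged from 320.0 to 3319 CPM (median 1217) in these adult stomachs and from 0 to 0.983 CPM (median 0.183) in duodenum. Its change was 12.37 ± 0.52. Chia, an acidic chitinase, had medians of 128 against 0 CPM. Cblif, intrinsic factor, which carries vitamin B12 and was listed with parietal genes, had medians of 1141 against 0.368 CPM. Lipf, gastric lipase in humans, was too low to be tested and reached at most 0.122 CPM in stomach. Clps, which encodes the cofactor of pancreatic lipase and stood in the chief cell list and in the pancreatic list, held 1281 to 3966 CPM (median 2258) in stomach, where the trypsinogen Prss1 had a median of 0 CPM. Pla2g1b, a secreted phospholipase best known from pancreatic juice, took 0.918 to 1.94% of stomach counts and was singled out after its values were seen.

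Parietal cell genes were higher in stomach for 19 of 21 tested members and lower for 2, with a median log2 change of 7.70, and 18 of the 21 had ranges that did not overlap. Atp4a, the catalytic subunit of the proton pump, ranged from 4042 to 9229 CPM (median 5942) in stomach and from 0 to 1.97 CPM (median 0.323) in duodenum, a change of 13.46 ± 0.38 (adjusted p = 1.20e-22). Atp4b, its beta subunit, ranged from 1172 to 2675 CPM (median 1812) and from 0 to 0.746 CPM (median 0.178). The pump was at or next to 0 in every duodenum library. Genes shared with other epithelia moved less. Car2, a cytosolic carbonic anhydrase, had medians of 866 against 121 CPM (2.36 ± 0.37) and Ezr, the membrane linker ezrin, 665 against 460.5 CPM (0.60 ± 0.12), with overlapping ranges for Ezr. Chrm3 and Slc9a2, a muscarinic receptor and a sodium-proton exchanger, were the 2 members higher in duodenum, with changes of -0.24 ± 0.08 and -0.59 ± 0.20. Their calls were lost under 4 and 5 of 43 alternative settings. Cyp19a1, the aromatase that makes estrogen and is known from parietal cells of the rat, was among the 15 largest differences of named genes. It ranged from 121 to 386 CPM (median 236) in stomach and had 3 counts in all 14 duodenum libraries together. The ratio was 12474, with a 95% counting interval of 4268 to 60489. Such an interval rests on summed counts and leaves out the spread between libraries.

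Surface mucous genes were higher in stomach for 12 of 15 members and lower for 3, with a median log2 change of 10.00. Muc5ac, the gel-forming mucin of the gastric surface, had the largest change of any named gene above 100 CPM in stomach. It ranged from 7165 to 15919.6 CPM (median 10715) in stomach and from 0 to 4.55 CPM (median 0.479) in duodenum (13.52 ± 0.52, adjusted p = 3.40e-19). Gkn1 and Gkn2, gastrokines that protect the mucosa, had medians of 5610.4 against 0.394 CPM and 6354 against 0.566 CPM. Their log2 changes were 12.77 ± 0.44 and 12.86 ± 0.46. Psca, a surface antigen named for the prostate, followed with medians of 1618 against 0.385 CPM, and Ctse, the intracellular protease cathepsin E, with 912 against 22 CPM. The 3 members higher in duodenum were Fut2, Gsdmc and Ptgr1, at -1.17 ± 0.10, -1.59 ± 0.20 and -1.79 ± 0.12, of which Fut2 adds the fucose of secretor antigens to mucins.

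Trefoil factors, small peptides secreted with mucins, divided by organ. Tff1 ranged from 1835 to 5439 CPM (median 3528) in stomach and from 0.197 to 3.81 CPM (median 1.04) in duodenum (11.43 ± 0.30). Tff3 ran the other way, from 0.164 to 6.47 CPM (median 1.47) in stomach and from 220.1 to 721 CPM (median 446) in duodenum (-7.85 ± 0.30). Tff2, made with Muc6 by neck and gland mucous cells and by Brunner's glands of the duodenal submucosa, ranged from 47.6 to 238 CPM (median 139) in stomach and from 0.18 to 55.9 CPM (median 1.02) in duodenum, and here the ranges overlapped. Muc6, the gland mucin, ranged from 56.2 to 242 CPM (median 140.2) and from 0 to 0.541 CPM (median 0) (10.53 ± 0.32). The main mucin of Brunner's glands was thus at or next to 0 in all 14 duodenum libraries. Muc2, the intestinal mucin, ranged from 10.02 to 23.6 CPM (median 17.9) in stomach and from 2719 to 7898 CPM (median 4347) in duodenum (-8.10 ± 0.18).

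**Figure D2:**
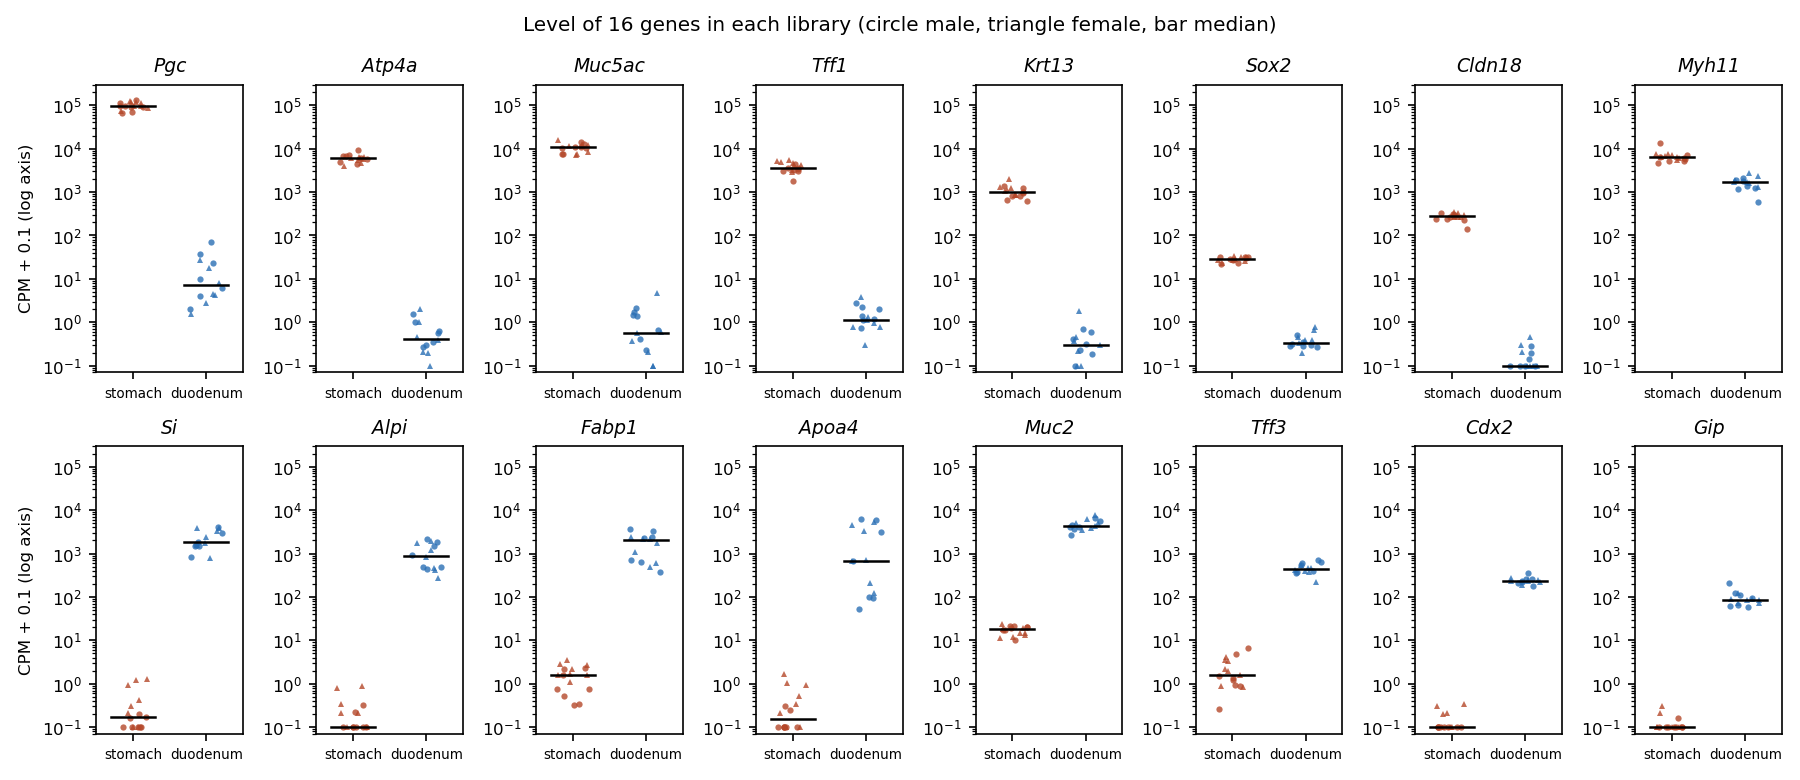
Level of 16 genes in each of the 30 libraries, on a log axis of CPM + 0.1, with circles for males, triangles for females and a bar at the median. The upper row holds genes higher in stomach and the lower row genes higher in duodenum. The clouds are apart in every panel, and the duodenal spread is widest for Apoa4, from 52.4 to 6394 CPM.

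Genes of squamous epithelium, which lines the forestomach, were higher in stomach. All 26 tested members of the squamous list were higher in stomach, 22 by at least 4-fold, with a median log2 change of 8.46. Krt13, a keratin of non-cornified and forestomach epithelium, ranged from 611 to 2019 CPM (median 986) in stomach and from 0 to 1.68 CPM (median 0.206) in duodenum (11.66 ± 0.34, adjusted p = 3.28e-22). Krt5, the basal keratin, had medians of 167 against 0 CPM, and Loricrin and Sprr3, proteins of the cornified envelope, medians of 461 against 0.0926 and 419 against 0.0956 CPM. Rptn, Kprp, Krt1 and Krt78, all genes of cornifying epithelium, were among the 15 largest differences of named genes. Their stomach medians were 436, 134, 4360.5 and 435 CPM. Desmosomal Dsp differed less, with overlapping ranges and medians of 949 against 491 CPM. The summed level of the list varied from 4308 to 11970 CPM over the stomach libraries, highest in male replicate 6 and female replicate 8, against 764 to 1122 CPM in duodenum. The part of squamous epithelium in other stomach differences was not tested.

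Digestive enzymes of the brush border were higher in duodenum for 17 of 18 tested members, all 17 by at least 4-fold, with a median log2 change of -8.75. Si, sucrase-isomaltase, ranged from 0 to 1.19 CPM (median 0.0679) in stomach and from 806 to 4143 CPM (median 1801) in duodenum (-13.87 ± 0.44, adjusted p = 2.40e-21). Alpi, intestinal alkaline phosphatase, ranged from 0 to 0.793 CPM (median 0) and from 275 to 2182 CPM (median 884) (-13.22 ± 0.51), and Akp3, a further intestinal phosphatase of rodents, had medians of 0 against 765 CPM. Lct, lactase, ranged from 0 to 0.3 CPM (median 0.116) in stomach and from 42.8 to 1165 CPM (median 359) in duodenum, so that the adult duodenum still held transcripts of the milk sugar enzyme in all 14 libraries. Tmprss15, the enteropeptidase that activates trypsinogen, ranged from 17.8 to 538 CPM (median 108) in duodenum and had 2 counts in all 16 stomach libraries together. The ratio was 20452, with a 95% counting interval of 5661 to 168886 that leaves out the spread between libraries. The peptidases Anpep and Ace were not restricted to duodenum. Anpep had medians of 102 against 1176 CPM (-3.62 ± 0.23) and Ace of 43.4 against 972 CPM (-4.79 ± 0.40). The member higher in stomach was the acid phosphatase Acp3, at 3.08 ± 0.13.

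Lipid absorption genes were higher in duodenum for 25 of 25 tested members, with a median log2 change of -8.42. Apoa4, an apolipoprotein of chylomicrons, ranged from 0 to 1.59 CPM (median 0.0536) in stomach and from 52.4 to 6394 CPM (median 689) in duodenum (-13.69 ± 1.00). Mttp, the microsomal protein that loads lipid onto apolipoprotein B, ranged from 0 to 1.19 CPM (median 0.123) and from 806 to 1926 CPM (median 1243) (-12.33 ± 0.30). Apob and Apoa1 had medians of 4.59 against 1594 and 8.2 against 2900.0 CPM. Fabp1, a fatty acid binding protein of liver and proximal gut, ranged from 0.225 to 3.49 CPM (median 1.5) and from 376 to 3737 CPM (median 2004) (-10.17 ± 0.46), while Fabp2, the intestinal form, was not silent in stomach and had medians of 32.5 against 508 CPM (-4.46 ± 0.41). Fabp3, the heart and muscle form, went the other way with medians of 890.0 against 1.91 CPM and a change of 8.85 ± 0.20. The summed level of the digestive enzyme list ranged from 2809 to 18715 CPM over the 14 duodenum libraries, lowest in female replicate 2 and male replicate 4, against 263 to 450.1 CPM in stomach.

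Nutrient transporters were higher in duodenum for 24 of 26 tested members and higher in stomach for 1, with a median log2 change of -3.54. Slc5a1, the sodium-glucose transporter, ranged from 1.46 to 8.57 CPM (median 3.02) in stomach and from 194 to 846 CPM (median 589) in duodenum (-7.08 ± 0.29, adjusted p = 9.64e-19). Slc2a2, which exports glucose and fructose from enterocytes, had medians of 0.21 against 234 CPM and Slc15a1, the peptide transporter, 8.05 against 122 CPM. Slc13a1, a sulfate transporter, had medians of 0 against 98.7 CPM. Slc51a, a subunit of the basolateral exporter of bile acids, had medians of 0.129 against 169.8 CPM, whereas the apical importer Slc10a2 stayed between 2.1 and 12.3 CPM in duodenum. The transporter higher in stomach was Slc43a1, which carries large neutral amino acids, at 2.81 ± 0.11.

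Genes of iron, calcium and zinc uptake were higher in duodenum for 11 of 14 tested members, with a median log2 change of -2.78. S100g, the calcium-binding calbindin-D9k, ranged from 0.111 to 3.16 CPM (median 0.493) in stomach and from 216 to 5484 CPM (median 1696) in duodenum (-11.30 ± 0.53). Slc11a2, the importer of ferrous iron, ranged from 21.7 to 37.9 CPM (median 27.5) and from 73.2 to 586 CPM (median 223) (-3.21 ± 0.20), and Slc40a1, the iron exporter ferroportin, had medians of 27.2 against 181 CPM (-3.10 ± 0.19). Heph, the ferroxidase that works with ferroportin, had medians of 11.5 against 169.7 CPM and Fth1, the ferritin heavy chain, 969 against 3837 CPM. Tfrc, the transferrin receptor, and Hmox1, heme oxygenase, did not pass the test, with changes of -0.14 ± 0.11 and 0.24 ± 0.20, and Calb1, a larger calbindin, was higher in stomach by 2.34 ± 0.29.

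Genes that handle foreign compounds were higher in duodenum for 23 of 29 tested members and higher in stomach for 5, with a median log2 change of -3.33. The glutathione transferases of the alpha class differed by member. Gsta5 ranged from 0 to 2.26 CPM (median 0.518) in stomach and from 792 to 2456 CPM (median 1422) in duodenum (-11.16 ± 0.34), and Gsta2 had medians of 1.2 against 164 CPM. Gsta1 ran the other way, from 155 to 335 CPM (median 215) in stomach and from 7.94 to 19.8 CPM (median 12.5) in duodenum (4.06 ± 0.12). Counts of such near-identical paralogs can be split by the authors' quantification, which makes the level of each member uncertain. Cyp3a9, a monooxygenase of the family that oxidises many drugs, had medians of 27.4 against 101 CPM, and Cyp1a1, the dioxin-inducible monooxygenase, 1.49 against 13.4 CPM, with overlapping ranges for both. Aldh1a1, a retinaldehyde dehydrogenase, was higher in stomach at 1.19 ± 0.13.

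Goblet cell genes were higher in duodenum for 11 of 14 tested members and Paneth cell genes for 13 of 14, with median log2 changes of -5.27 and -7.98. Fcgbp, a protein of the mucus gel, ranged from 5.56 to 198 CPM (median 37) in stomach and from 3372 to 6536 CPM (median 5169) in duodenum (-6.72 ± 0.43), and Zg16, which binds bacteria in mucus, had medians of 0.112 against 988 CPM. The goblet members higher in stomach were Bcas1, Spdef and Agr2, at 0.90 ± 0.12, 0.36 ± 0.09 and 0.27 ± 0.11, the last a call lost under 10 of 43 alternative settings. Agr2, which folds mucins, and Spdef, a factor of mucous cells, also serve gastric mucous cells. Defa24, an alpha-defensin of Paneth cells, ranged from 0 to 1.02 CPM (median 0) and from 92 to 539 CPM (median 326) (-11.63 ± 0.36), and Lyz2, lysozyme, which macrophages make as well, had medians of 83.7 against 787 CPM. Defa5, Defa7 and 3 other Paneth members were too low to test, and the defensins are a family of near-identical copies.

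Stem and progenitor genes did not move together. Of 19 tested, 8 were higher in stomach and 11 in duodenum, beside 40.2% and 40.3% of all genes, with a median log2 change of -0.28. Olfm4, a marker of crypt base stem cells, ranged from 0 to 1.29 CPM (median 0.494) in stomach and from 107 to 346 CPM (median 207) in duodenum (-8.64 ± 0.19). Lgr5, the receptor that marks stem cells of the crypt and of gastric glands, ranged from 0.446 to 2.78 CPM (median 1.32) and from 3.32 to 10.1 CPM (median 9.07) (-2.35 ± 0.19), and its ranges did not overlap. Lrig1, which restrains growth factor receptors, was higher in stomach with medians of 142 against 53 CPM (1.51 ± 0.09). Cell cycle genes were higher in duodenum for 24 of 24 members, 8 by at least 4-fold, with a median of -1.79. Mki67, a marker of cycling cells, ranged from 40.3 to 115 CPM (median 83.3) in stomach and from 153 to 401 CPM (median 306) in duodenum (-1.83 ± 0.12, adjusted p = 2.04e-14), without overlap.

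Of 55 transcription factors of gut region tested, 22 were higher in stomach, 25 higher in duodenum and 8 not called, shares near the 40.2% and 40.3% of all genes, with a median log2 change of -0.20 that became 0.29 when 10 members too low for the filter were kept. Cdx2, the factor that specifies intestinal epithelium, ranged from 0 to 0.234 CPM (median 0) in stomach and from 175 to 356 CPM (median 237) in duodenum (-12.71 ± 0.19, adjusted p = 4.47e-24). Pdx1, needed for the duodenum and the pancreas, ranged from 0 to 2.9 CPM (median 0.823) and from 30.4 to 61 CPM (median 51.4) (-5.64 ± 0.25). Hnf4g, a regulator of enterocyte genes, and Vdr, the vitamin D receptor, had medians of 3.76 against 255 and 2.51 against 237 CPM, and Onecut2, a duodenal factor, 0.119 against 50.2 CPM. Isx, an intestinal homeobox factor that controls vitamin A handling, had 1 count in all 16 stomach libraries and 12.5 to 32.7 CPM (median 22.7) in duodenum. On the stomach side Sox2 ranged from 22.2 to 32.8 CPM (median 28.7) and from 0.093 to 0.699 CPM (median 0.241) (6.62 ± 0.13, adjusted p = 2.14e-26). Barx1, a factor of the stomach mesenchyme, ranged from 34.8 to 64.6 CPM (median 43.7) and from 0 to 0.123 CPM (median 0) (10.10 ± 0.20). Tp63 and Grhl3, factors of squamous epithelium, were higher along with the squamous list, at 5.90 ± 0.23 and 5.97 ± 0.22, and Esrrg, an orphan receptor of parietal cells, had medians of 152 against 6.92 CPM (4.44 ± 0.13).

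Other factors of the foregut and midgut were present in both organs. Gata4 ranged from 106 to 198 CPM (median 174) in stomach and from 128 to 184 CPM (median 154) in duodenum and did not pass (0.14 ± 0.07, adjusted p = 0.0765), although it passed under 8 of 43 alternative settings, at 0.14 to 0.24. Gata6 and Gata5, of the same family, passed in opposite directions, at 0.58 ± 0.06 and -0.86 ± 0.15. Hnf4a, a regulator of many epithelial genes, had medians of 78.4 against 559 CPM and Foxa2, a pioneer factor of endoderm, 46.8 against 6.76 CPM. Ehf, an epithelial factor, did not pass either, at -0.20 ± 0.09, although it passed under 10 of 43 alternative settings, at -0.37 to -0.21. A further 10 factors of the list were too low to test.

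Hox genes, which mark position along the body, were higher in stomach for 14 of 16 tested members and higher in duodenum for 0, with a median log2 change of 0.92, and 15 members were too low to test. Hoxc8 showed the largest difference and was singled out after its values were seen, with 1.34 to 12.4 CPM (median 3.77) in stomach and no count in any of 14 duodenum libraries, at least 215-fold higher in stomach against a floor of 3 counts over the group. Hoxc4, Hoxc5 and Hoxc6 had medians of 13.6 against 2.54, 7.55 against 0.644 and 6.95 against 0.788 CPM. Hoxb3, Hoxb4 and Hoxa5 differed less, at 0.77 ± 0.17, 0.74 ± 0.14 and 0.86 ± 0.17, with overlapping ranges. Hox genes are active mainly in muscle and stroma, whose own lists were also higher in stomach, as given below, and the part of those cells was not tested.

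**Figure D3:**
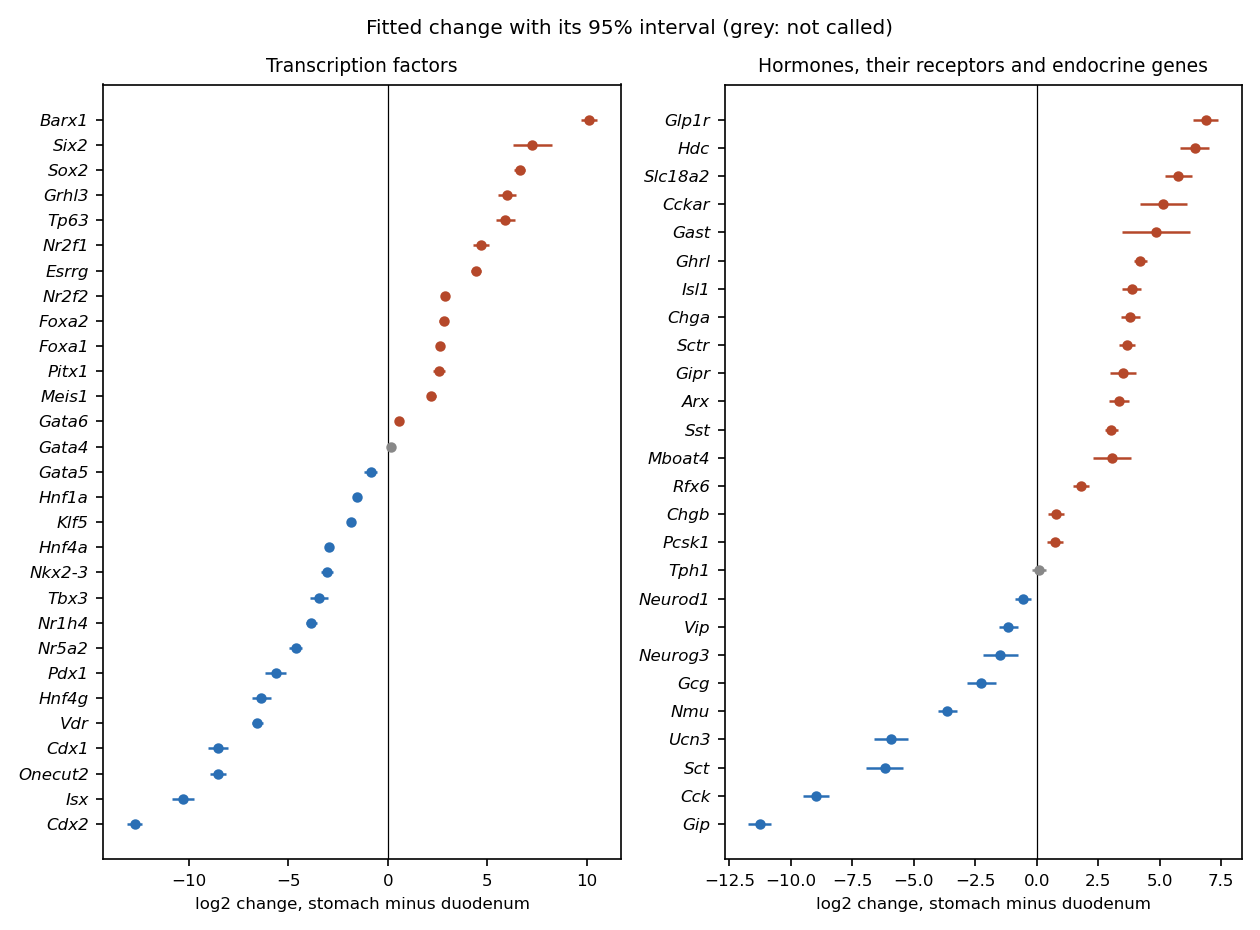
Fitted log2 change, stomach minus duodenum, for 29 regional transcription factors and 26 genes of hormones, their receptors and endocrine cells. The 95% intervals were built from the approximate standard error. Red points were called higher in stomach, blue points higher in duodenum, and grey points were not called. The scale runs from Barx1 at 10.10 to Cdx2 at -12.71 and from Glp1r at 6.88 to Gip at -11.27.

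Hormones of the gut divided by organ. Of 34 hormone and enteroendocrine genes tested, 19 were higher in stomach, 12 higher in duodenum and 3 not called, with a median log2 change of 1.04. Over all genes the shares were 40.2% and 40.3%. With no filter on low counts 19 of 43 members were higher in stomach and 15 in duodenum, with a median of 0.24. Ghrl, the hunger hormone ghrelin, ranged from 169 to 479 CPM (median 319.9) in stomach and from 11.6 to 36.4 CPM (median 17.8) in duodenum (4.21 ± 0.13, adjusted p = 1.20e-21). Sst, somatostatin, which restrains acid, had medians of 119 against 14.1 CPM, and Hdc, the histamine-forming enzyme of enterochromaffin-like cells and mast cells, 114 against 1.63 CPM (6.42 ± 0.29). Gast, gastrin, which drives acid secretion from the antrum, ranged from 0.242 to 68.2 CPM (median 18.1) in stomach and from 0.18 to 1.51 CPM (median 0.714) in duodenum (4.86 ± 0.67). Its ranges overlapped, and Gast was among the 10 stomach genes with the largest spread between libraries.

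On the duodenal side Gip, the incretin released by glucose and fat, ranged from 0 to 0.205 CPM (median 0) in stomach and from 58.6 to 211 CPM (median 85.6) in duodenum (-11.27 ± 0.23, adjusted p = 2.94e-26). Cck, cholecystokinin, ranged from 0 to 0.135 CPM (median 0) and from 14 to 38 CPM (median 21.8) (-8.98 ± 0.25). Sct, secretin, which calls for bicarbonate, had medians of 0.0375 against 4.05 CPM and Nmu, neuromedin U, 1.66 against 19.6 CPM. Chga, a granule protein of endocrine cells, was higher in stomach with medians of 1334 against 114 CPM (3.80 ± 0.19). Tph1, the enzyme of serotonin synthesis in enterochromaffin cells, did not pass, with medians of 24.5 against 23.2 CPM (0.09 ± 0.14, adjusted p = 0.551).

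The hormone list held 6 receptors, of which 4 could be tested. Glp1r ranged from 20.3 to 78.2 CPM (median 35.9) in stomach and from 0 to 0.753 CPM (median 0.327) in duodenum (6.88 ± 0.25), although its ligand gene Gcg was higher in duodenum (-2.26 ± 0.29). Cckar, which binds cholecystokinin, had medians of 16.8 against 0.122 CPM, Sctr, the secretin receptor, 39.99 against 2.63 CPM and Gipr, the receptor of the incretin, 2.85 against 0.251 CPM. These 4 were called higher in stomach, at 5.15 ± 0.47 for Cckar, 3.67 ± 0.16 for Sctr and 3.53 ± 0.26 for Gipr. Mln and Ghsr, motilin and the ghrelin receptor, were among 10 members too low to test, and Mln had no count in any library.

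Claudins, which seal and set the selectivity of tight junctions, differed by member: 4 of 17 tested barrier genes were higher in stomach and 12 in duodenum. Cldn18, the claudin of gastric epithelium, ranged from 140.1 to 340.4 CPM (median 276) in stomach and from 0 to 0.347 CPM (median 0) in duodenum (11.78 ± 0.24, adjusted p = 3.62e-26). Cldn15, which forms sodium channels between enterocytes, ranged from 0.114 to 1.09 CPM (median 0.296) and from 204 to 312 CPM (median 244) (-9.28 ± 0.15). Cldn3 and Cldn7 had medians of 1.95 against 286 and 1.49 against 328 CPM. The plaque proteins Tjp1 and Cgn, which all epithelia share, changed by 0.43 ± 0.06 and -0.57 ± 0.09.

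Acid, base and ion transport genes divided, with 8 of 20 tested members higher in stomach and 11 in duodenum, beside 40.2% and 40.3% of all genes. Slc4a2, the basolateral bicarbonate exchanger of parietal cells, had medians of 377 against 83.5 CPM (2.17 ± 0.06). Cftr, the chloride and bicarbonate channel, ranged from 2.38 to 13.8 CPM (median 7.55) in stomach and from 130.3 to 193 CPM (median 161) in duodenum (-4.47 ± 0.16), and Slc26a6, its partner exchanger, had medians of 8.53 against 192 CPM. Atp1b1, a beta subunit of the sodium pump, was higher in stomach by 0.30 ± 0.11. Of 8 aquaporins tested, 4 were higher in each organ, also beside 40.2% and 40.3% of all genes. Aqp4, the water channel of parietal cells, had medians of 129 against 34.1 CPM and Aqp8, of intestinal epithelium, 0.194 against 41.3 CPM.

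Of 13 tested genes listed as epithelium of both organs, 11 were higher in duodenum, 9 by at least 4-fold, although several, Vil1 and Cdh17 among them, are known mainly from intestine. Vil1, villin of the microvillus core, ranged from 2.17 to 11.1 CPM (median 5.55) in stomach and from 897 to 2419 CPM (median 1599) in duodenum (-8.18 ± 0.24). Cdh17, intestinal cadherin, had medians of 1.21 against 1130.0 CPM and Epcam, a marker of simple epithelium, 298 against 1176 CPM. Cdh1, the cadherin of all epithelia, did not pass, with medians of 566 against 629.8 CPM (-0.15 ± 0.08, adjusted p = 0.0876).

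Signalling genes of the gut were higher in stomach for 29 of 49 tested members and higher in duodenum for 14, with a median log2 change of 0.48. Shh, the hedgehog ligand of the foregut, ranged from 10.8 to 50.04 CPM (median 21.6) in stomach and had no count in any of 14 duodenum libraries, at least 1212-fold higher against the floor of 3 counts over the group. Ihh, the ligand of intestinal epithelium, ranged from 7.87 to 23.6 CPM (median 14.8) and from 38.3 to 66.9 CPM (median 48.2) (-1.72 ± 0.12), and their receptor Ptch1 did not pass (-0.20 ± 0.12). Both ligands and the receptor were singled out after their values were seen. Grem1, a secreted inhibitor of bone morphogenetic proteins, had medians of 88.7 against 46.8 CPM. Rbp2, which holds retinol inside enterocytes, ranged from 4.92 to 19.3 CPM (median 8.12) and from 1142 to 5037 CPM (median 2907) (-8.15 ± 0.27), and Aldh1a3, a retinaldehyde dehydrogenase, had medians of 1.88 against 82.6 CPM.

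Genes of muscle and stroma were higher in stomach. All 17 tested smooth muscle genes were higher in stomach, with a median log2 change of 1.96. Myh11, smooth muscle myosin, ranged from 4699.6 to 13389 CPM (median 6312) in stomach and from 593 to 2795 CPM (median 1699.9) in duodenum (2.02 ± 0.17, adjusted p = 4.90e-12), and Acta2, smooth muscle actin, from 1465 to 3735 CPM (median 1752) and from 334 to 695 CPM (median 495) (1.96 ± 0.14). Of 22 fibroblast and matrix genes, 19 were higher in stomach and 2 in duodenum, with a median of 1.67. Dcn, the proteoglycan decorin, stood out with medians of 1861 against 86.1 CPM (4.29 ± 0.14), against 1.99 ± 0.20 for the collagen Col1a1 and 1.57 ± 0.15 for Col3a1. Striated muscle genes were higher in stomach for 12 of 12 members. Their summed level was 1104 to 4647 CPM in stomach and 302.2 to 729.6 CPM in duodenum, and 8 of the 10 stomach genes with the largest spread between libraries encode striated muscle proteins, among them Myh8, Ttn, Actc1 and Mb. Myh8, a myosin of developing muscle, ranged from 0.0749 to 1169.7 CPM (median 9.23) in stomach. Ttn, Actc1 and Mb had stomach medians of 8.61, 2.22 and 1.93 CPM. These medians lay far below the lowest summed level of the list. With limma voom 10 of the 12 members were called, and the calls of Myh8, Ttn and Mb were lost, at changes of 8.71, 7.66 and 6.33.

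Pacemaker and nerve genes moved less. Of 6 genes of interstitial cells of Cajal, 5 were higher in stomach, with Ano1, their chloride channel, at medians of 98.7 against 21.6 CPM (2.30 ± 0.09) and Kit at 45.6 against 15.4 CPM (1.49 ± 0.10). Enteric neuron genes were higher in stomach for 5 of 16 members and in duodenum for 6, with 5 not called, beside 40.2% and 40.3% of all genes. Their median log2 change was -0.40, and 0.05 in batch 2 alone. Nos1, the nitric oxide synthase of inhibitory neurons, was higher in stomach by 3.08 ± 0.17 and Vip, a peptide of inhibitory and secretomotor neurons, higher in duodenum (-1.15 ± 0.19). Enteric glia genes were higher in stomach for 7 of 8 members, for example S100b at 1.31 ± 0.18. Endothelial genes were higher in stomach for 8 of 14 members, Pecam1 by 1.05 ± 0.11, and lower for 3.

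Lymphocyte and antigen presentation genes were mostly higher in duodenum. T and intraepithelial lymphocyte genes were higher there for 18 of 19 tested members and in stomach for 0, with a median log2 change of -2.09. Cd3g, a chain of the T cell receptor complex, ranged from 0 to 1.06 CPM (median 0.318) in stomach and from 4.5 to 20.5 CPM (median 7.03) in duodenum (-4.72 ± 0.28), and Ccr9, the receptor that homes cells to the small intestine, had medians of 0.504 against 7.59 CPM. Ccl25, the ligand of CCR9, ranged from 0 to 0.752 CPM (median 0.0841) and from 106 to 206 CPM (median 142) (-9.87 ± 0.22), so that receptor and ligand were both higher in duodenum. B and plasma cell genes were higher in duodenum for 12 of 14 members, with a median of -3.13. Ighm, the immunoglobulin M heavy chain, ranged from 86.3 to 457 CPM (median 276) and from 1443 to 3989 CPM (median 2609.6) (-3.22 ± 0.19), and Jchain, which joins secreted immunoglobulins, had medians of 69.8 against 689 CPM. Pigr, which carries them across the epithelium, had medians of 2034 against 4858 CPM (-1.24 ± 0.09).

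Antigen presentation genes were higher in duodenum for 15 of 16 tested members and in stomach for 0, with a median log2 change of -2.31. Psmb8, a subunit of the immunoproteasome, ranged from 4.68 to 16.7 CPM (median 8.83) in stomach and from 151 to 268 CPM (median 235) in duodenum (-4.72 ± 0.12), more than B2m, the light chain of class I molecules (-2.13 ± 0.15), or Cd74, the class II invariant chain (-2.35 ± 0.11). Irf1, an interferon response factor, had medians of 29.4 against 165 CPM (-2.33 ± 0.10), and the interferon list as a whole held 12 of 23 genes higher in duodenum, 4 higher in stomach and 7 not called. Nlrp6, an inflammasome sensor of intestinal epithelium, ranged from 0 to 0.537 CPM (median 0.11) and from 232 to 491 CPM (median 349) (-11.05 ± 0.22, adjusted p = 2.14e-26). Macrophage genes were higher in duodenum for 8 of 11 members, C1qa at -1.28 ± 0.11. Of the eosinophil genes, 4 of 5 tested members were higher in stomach and 1 higher in duodenum, with a median log2 change of 1.37. The 6 members too low to test were Epx, Prg2, Prg3, Ear1, Il5ra and Rnase3, at most 0.703 CPM in any library. With no filter on low counts 4 of 9 members were higher in stomach and 1 in duodenum, with a median of 0.60. Mast cell genes were higher in stomach for 5 of 12 tested members and in duodenum for 3, beside 40.2% and 40.3% of all genes. Mcpt1, the protease of mucosal mast cells, was higher in duodenum (-2.27 ± 0.25). Hdc was higher in stomach, but enterochromaffin-like cells express it too, so it does not speak for mast cells alone. Mucosal defence genes were higher in stomach for 11 of 25 members and in duodenum for 10, near the 40.2% and 40.3% of all genes. Muc1, a membrane mucin, had medians of 147 against 0.68 CPM (6.94 ± 0.33) and Il33, an alarmin, 99.3 against 23.7 CPM (2.15 ± 0.14).

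Urea cycle and amino acid genes of the epithelium were higher in duodenum for 9 of 14 tested members and higher in stomach for 4. Cps1, which makes carbamoyl phosphate and is known from liver and small intestine, ranged from 0 to 1.17 CPM (median 0) in stomach and from 1219 to 1921 CPM (median 1546) in duodenum (-13.52 ± 0.31), and Otc, the next enzyme, had medians of 0.188 against 203 CPM. The steps that follow went the other way. Ass1 and Asl, which complete arginine, were higher in stomach at 1.99 ± 0.13 and 0.99 ± 0.05, and were named after their values were seen. Oat, which joins ornithine to proline metabolism, had medians of 147 against 1063 CPM.

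Changes in housekeeping programmes were small. Cytosolic ribosomal protein genes were higher in duodenum for 20 of 21 tested members with a median log2 change of -0.56, and nuclear genes of the respiratory chain for 27 of 29 with a median of -0.59. No member of either list reached 4-fold, and in batch 2 alone 11 of the 21 ribosomal genes were called. Rplp0, a ribosomal stalk protein, had medians of 714 against 1094 CPM (-0.61 ± 0.08) and Atp5f1b, a subunit of ATP synthase, 1477 against 2097 CPM (-0.53 ± 0.08). The listed genes of the mitochondrial genome were not lower in stomach with the nuclear ones. Of these, 8 of 13 were higher in stomach, 1 in duodenum and 4 not called, with a median of 0.22. This holds for the listed genes only. The entries AY172581.24 and AY172581.9, given above, had the larger median share in duodenum, and what they encode was not examined. In batch 1 alone 0 of 13 were called higher in stomach, with a median of 0.05. In batch 2 alone 5 of 13 were called higher in stomach and 0 in duodenum, with a median of 0.32. Without the 7 duodenum libraries that held the most pancreatic transcripts, described below, 3 of 13 were called higher in stomach, with a median of 0.19. Mt-co1, a subunit of cytochrome oxidase, ranged from 19567 to 39026 CPM (median 23263) in stomach and from 12588 to 29304 CPM (median 24576) in duodenum and did not pass (0.04 ± 0.10). Upper quartile scaling, an alternative, moved the median of all genes to 0.09, so small changes are relative to the scaling. Cholesterol synthesis genes were higher in stomach for 5 of 19 members and in duodenum for 9, with 5 not called, beside 40.2% and 40.3% of all genes. Genes of protein folding in the endoplasmic reticulum were higher in duodenum for 13 of 20 members, Hspa5, its main chaperone, at -0.29 ± 0.09, a call lost with upper quartile scaling and in batch 1 alone (-0.19 in both).

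The organs were close for 4060 genes, whose 95% interval of the change lay within 0.5 of zero on the log2 scale. The most abundant named genes of these were Mt-co1, Mt-co2, Mt-co3, Mt-atp6, Mt-cyb, Eef1a1, Mt-nd5, Tpt1, Mt-nd3 and Rpl23a. Eef1a1, a translation elongation factor, had medians of 4405 against 5588 CPM and Tpt1, a growth-associated protein, 1418 against 1718 CPM. Their changes were -0.30 ± 0.07 and -0.33 ± 0.08.

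**Figure D4:**
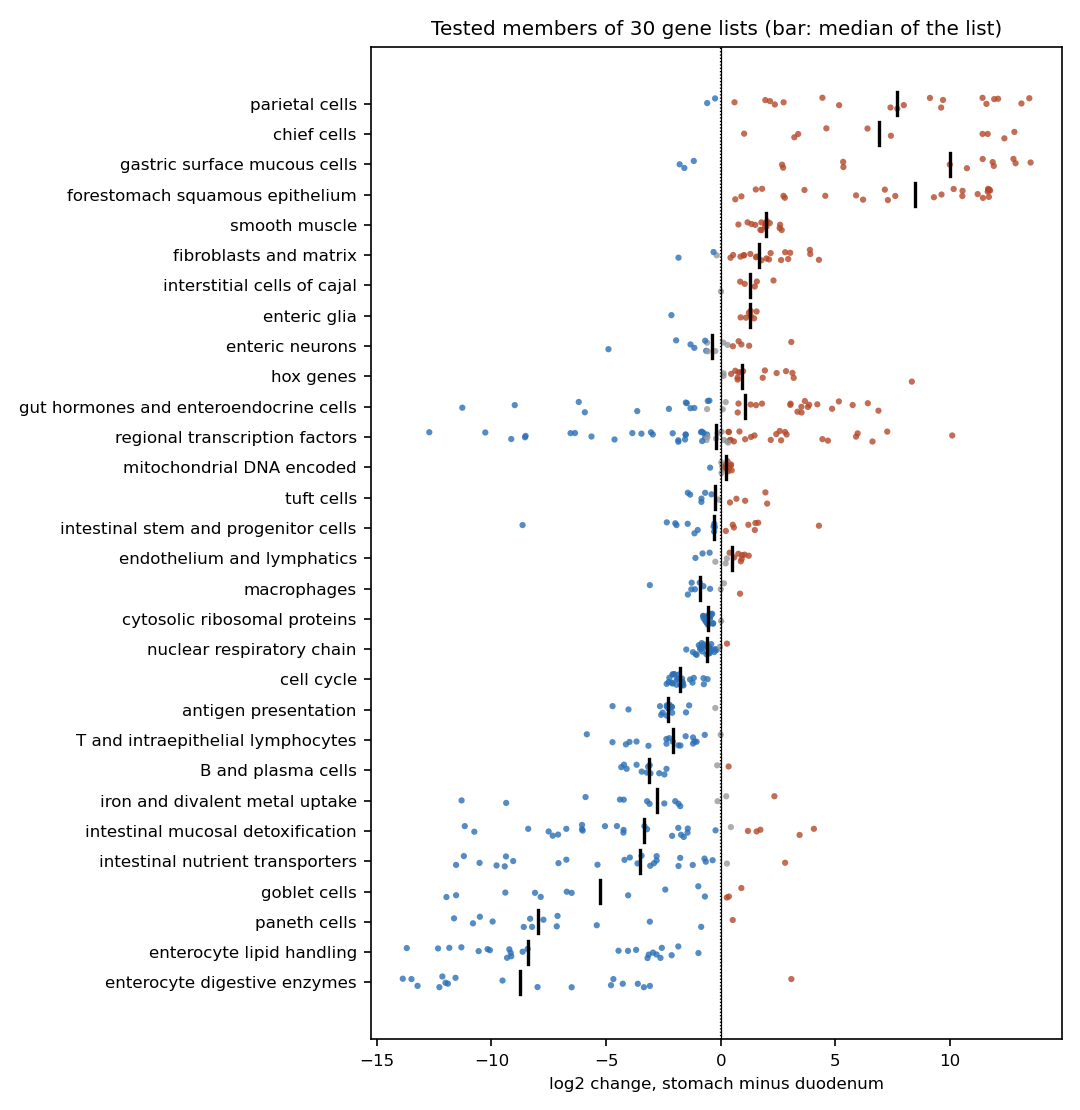
Fitted log2 change, stomach minus duodenum, of every tested member of 30 gene lists, with a bar at each list's median and a dotted line at the median over all genes. Red and blue points were called higher in stomach and in duodenum, grey points were not called. The medians run from 10.00 for surface mucous cells to -8.75 for digestive enzymes, with ribosomal proteins at -0.56.

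Duodenum libraries varied more than stomach libraries. The median over genes of the SD of log2 CPM, after sex and batch were taken out, was 0.231 in stomach and 0.302 in duodenum, and 69.8% of genes had the larger SD in duodenum. The named genes with the largest duodenal spread are pancreatic, among them Prss1, Cela2a, Prss3b, Cpa1, Pnlip, Ctrb1, Cpb1, Pnliprp1 and Rnase1. Prss1, trypsinogen, ranged from 0 to 14864 CPM (median 135) in duodenum and from 0 to 9.34 CPM (median 0) in stomach. The summed level of the pancreatic list was 8.03 to 86009 CPM over the duodenum libraries and passed 1000 CPM in 7 of 14, with female replicate 4 the highest. In stomach it was 1355 to 4155 CPM, of which Clps alone held 1281 to 3966 CPM. The part of pancreatic tissue in other duodenal differences was not tested as such. Ctrb1, chymotrypsinogen, was higher in duodenum at -2.49 ± 0.99, and this call rested on few libraries. It was lost without female replicate 4 alone (-1.20) and without male replicate 7 alone (-2.16), in batch 2 alone (-0.32), with limma voom (-0.31) and with the replicate block (-0.52) or the block on library number (-0.49). Without those 7 libraries the change was 1.32 and did not pass. Without those 7 libraries 12145 genes were called, 6231 higher in stomach and 5914 higher in duodenum.

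**Figure D5:**
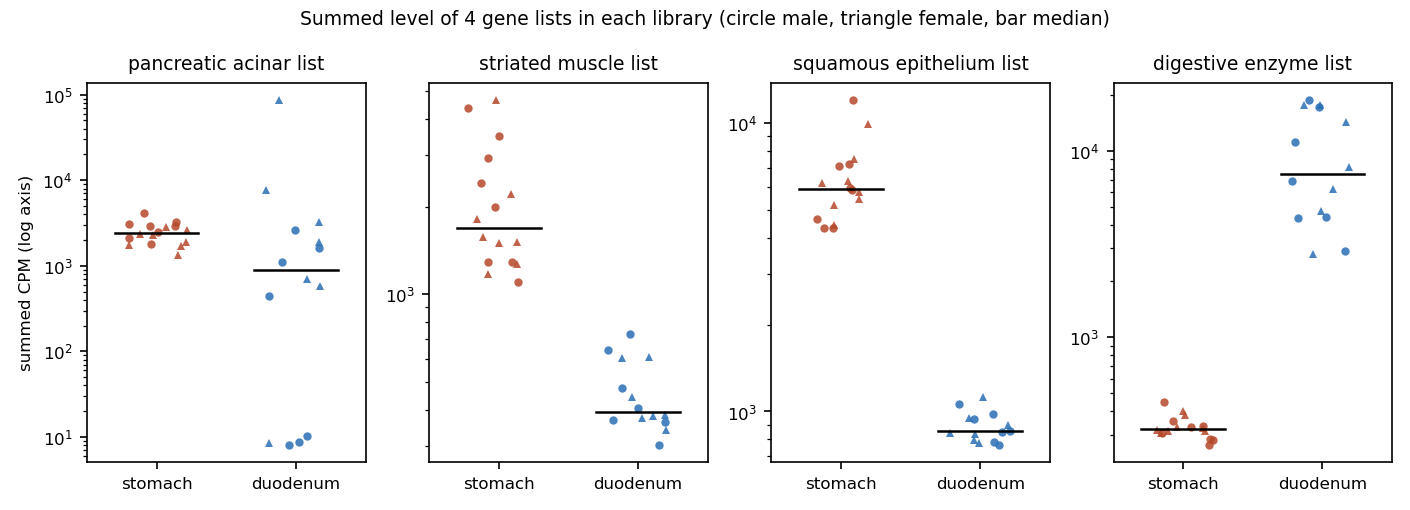
Summed CPM of 4 gene lists in each library, on log axes that differ between panels, with circles for males, triangles for females and a bar at the median. The pancreatic list spans 8.03 to 86009 CPM within duodenum, striated muscle and squamous sums are higher in every stomach library, and digestive enzymes are higher in every duodenum library.

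The contrast was also fitted in each sex. In males 11594 genes (75.1%) were called and in females 11070 (71.7%), and 12409 of the 12425 genes called over both sexes (99.9%) had the same sign in each sex. The difference between the sexes in the organ contrast was called for 0 genes by edgeR's quasi-likelihood test, with 1085 at an unadjusted p under 0.05, against 11 by DESeq2 and 1 by limma voom. Over the 10 genes with the smallest p the adjusted p lay from 0.21 to 0.247. Plac8, a small cysteine-rich protein, ranged from 2.05 to 11.02 CPM in male stomach and from 11.8 to 21.1 CPM in female stomach, without overlap. In duodenum it ranged from 185.5 to 501.4 CPM in males and from 193.4 to 381.2 CPM in females. Lypd8l2, which had the largest duodenal change of any named gene above 100 CPM (-13.89 ± 0.38), ranged from 1893 to 3466 CPM in male and from 1160.2 to 2994 CPM in female duodenum. In stomach it lay at 0 to 0.111 CPM in males and at 0 to 1.82 CPM in females, so its difference between the sexes rests on counts near 0.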

How the data were processed

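Polyadenylated RNA was measured by RNA sequencing. Per the labels' protocols the tissue mass of a sample varied and the pieces were pulverised together. The authors deposited 1 table of estimated counts per organ, with 30562 genes of which 4380 carried no symbol; 11.3% of the values had a fraction, and they were rounded to whole numbers before testing, which changed no library total by more than 0.00053%. The submitters' processing notes name FastQC 0.12.1, MultiQC 1.28, STAR 2.7.11b, Salmon 1.10.3, Trim Galore 0.6.10, UMI-tools 1.1.5, cutadapt 4.9 and the build mRatBN7.2, with no roles or order. Whether counting used strand is not stated.

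From the counts, genes were filtered in edgeR 4.0.16 (R 4.3.3; minimum count 10, minimum total 15), which left 15435, scaled by TMM and fitted with the quasi-likelihood test, with terms for organ within sex and for batch. P-values were adjusted over all tested genes by the Benjamini-Hochberg method, and calls used an adjusted p under 0.05. CPM used TMM library sizes. Genes sharing a symbol were left out of the lists. Tested on simulated data for this comparison over 15261 genes, the fit recovered 76 of 100 genes changed 1.5-fold and 91 of 100 changed 2-fold. Of the calls 6.7% were false. Only these genes were changed, and the rest had the same level in both organs. In the comparison itself 80.5% of genes were called. How the scaling, the recovery and the share of false calls hold with that many genes changed was not tested. Alternatives used DESeq2 1.42.0, limma 3.58.1, other scalings, no filter, batches alone and libraries left out.

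The members and gene lists were chosen with earlier results of these data known. Named genes were the 6 most abundant of each list, all regional factors and hormone genes, the 15 largest changes each way, and the 10 leading genes each for sex difference, likeness and spread. Genes of uncertain identity, with no symbol or only a locus name, were left out of these rankings. Acp3, Agr2, Asl, Ass1, Bcas1, Calb1, Chrm3, Fut2, Gsdmc, Hmox1, Hoxc8, Ihh, Ptch1, Ptgr1, Shh, Slc43a1, Slc9a2, Tfrc and Pla2g1b were named after their values were seen. Fitted changes of genes with no count in 1 organ (17 tested genes in stomach, 49 in duodenum) depend on the prior count, and no list median moved with such genes at their bound. A few members of the lists were left out of the text.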

Additional observations from a re-analysis of the deposited data

Results flagged for a closer look

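The 10 genes leading for the sex difference were examined within each organ and sex, which gave 40 groups of 7 or 8 libraries. Of these groups 2 held a library far from the rest, where chance gives about 1 in 20. Cecr2 stood at 13.8 CPM in stomach male replicate 3, apart from the other male stomach libraries. Sertad3 stood at 14.2 CPM in duodenum male replicate 8, apart from the other male duodenum libraries.

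The duodenum library left out of the comparison, male control replicate 1, held ileal transcripts above the level of all 14 duodenum libraries compared. Fabp6 stood at 3192 CPM and Slc10a2 at 419.8 CPM. Slc51a and Slc51b, the subunits of the bile acid exporter, stood at 715.8 and 441.4 CPM, and Guca2a, guanylin, at 390.1 CPM. The peptide genes Gcg, Nts and Pyy stood at 58.0, 55.8 and 4.17 CPM, and Amn, a partner of the vitamin B12 receptor, at 55.9 CPM.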

How the results depend on the processing

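Of 204 gene results named in the text, 181 kept their direction where called and their side of the threshold under each of 43 alternatives that gave a value, and 23 did not; DESeq2 gave no adjusted p for 6 of the 204. Ctrb1 turned to 1.32 without the duodenum libraries holding pancreatic transcripts, and the cause was not tested. The number of genes called over both sexes ran from 10943 (batch 2 alone) to 14442 (no filter), and from 12274 to 12573 with 1 library left out. The difference between the sexes was called for 0 genes, but for 11 by DESeq2, 1 by limma voom and 1 without the libraries holding pancreatic transcripts; with 1 library left out it ran from 0 to 1, reached without duodenum female replicate 1. Pairing was not used, because not every pair correlated above 0.1: 6 of 14 did by replicate number, and 9 of 14 by library number, where the median r was 0.115 and 7 libraries correlated best with their own number. With the replicate block 12086 genes were called, and with the block on library number 12367. The main fit took the libraries as independent. Yet Fam111a, Klkb1 and RT1-O1l1, described below, stood at the same level in 15 of 15 pairs by library number. Whether such pairs share an animal was not tested. Genes past 4-fold numbered 2017 higher in stomach and 1673 higher in duodenum with no filter. Depth limits genes at few counts, where folds rest on the floor of 3 counts.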

Other observations

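Some genes stood at a low or a high level with no library between, chosen here after their values were seen. Fam111a was high in 6 of 16 stomach libraries (at least 99.6 CPM against at most 8.28 CPM in the rest) and in 6 of 15 duodenum libraries, the one left out included (at least 110.8 against at most 16.8 CPM). Libraries of the 2 organs that carry the same library number had the same level in 15 of 15 pairs for Fam111a, Klkb1 and RT1-O1l1, and in 14 of 15 for Aldh1a7. Paired by replicate number the counts were 13, 13, 12 and 14 of 15. Gp2, which also took 2 levels, matched in 8 of 15 pairs by library number. The labels do not say that equal numbers are the same animal.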
